A study of Mus musculus with 6 samples.

Results

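Potassium channel genes were examined by RNA-seq in the whole retina of mice of 240 days, 3 of them WT and 3 Wfs1-KO. Genes whose symbol starts with Kcn were taken if they had 10 or more counts in at least 3 of the 6 libraries, which gave 76 of the 55376 genes of the table. Of 99 such symbols, 6 were left out by name (Kcnj10 and 5 antisense or overlapping transcripts), and another 17 were left out for low counts. The mutant mice carried the exon8del allele of Wfs1, the gene of wolframin, a membrane protein of the endoplasmic reticulum, and both groups are given as a cross of C57 and 129 in the sample labels and as C57BL/6 J in the study's methods. Each library came from one mouse according to the methods, and the deletion was present in every cell, so a difference in this model can come from any cell type of the eye or body. In whole tissue, fewer cells of a type and less RNA per cell cannot be told apart. The 76 genes fall into 21 subfamilies by the letters of their symbols, and all 76 passed the filter on low counts used for the test. Kcna7 and Kcnv1 were the genes just inside the count rule, with 10 or more counts in 4 libraries, and Kcne4, Kcng3, Kcnmb3, Kcnn4 and Kcnq1 were just outside, with 10 or more counts in 2 libraries.

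Potassium channels let potassium leave a cell and thereby set its resting voltage and end its electrical responses. Voltage-gated channels open on depolarization, inward rectifiers and two-pore channels hold the resting potential, calcium- or sodium-activated channels couple voltage to ion entry, and silent and accessory subunits form no channel of their own but change those they join. In photoreceptors, the silent subunit Kcnv2 takes part in an outward current of the inner segment that shapes the light response, and loss of KCNV2 in humans causes a cone dystrophy with supernormal rod responses. In the pigment epithelium, Kcnj13 carries the potassium current of the apical membrane.

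The pore of these channels is lined by a short selectivity filter, and the coding sequence of that filter is shown for the abundant genes Kcnj14 and Kcnv2, for 2 genes that were far from the other retinas in 1 of them (Kcna3 and Kcnh5) and for the pigment epithelium gene Kcnj13. Each is a run of 60 coding bases, 5′ to 3′ on the sense strand, from the longest complete coding sequence of the GENCODE M21 annotation (mm10). Capitals mark 5 codons that read Thr or Ser, Val or Ile, Gly, Tyr or Phe, Gly.
Kcnj14: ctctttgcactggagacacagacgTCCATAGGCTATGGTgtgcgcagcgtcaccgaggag
Kcnv2: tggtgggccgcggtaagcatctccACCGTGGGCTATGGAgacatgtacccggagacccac
Kcna3: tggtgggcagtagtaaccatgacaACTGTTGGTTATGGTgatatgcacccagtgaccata
Kcnh5: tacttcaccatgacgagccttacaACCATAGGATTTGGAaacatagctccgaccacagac
Kcnj13: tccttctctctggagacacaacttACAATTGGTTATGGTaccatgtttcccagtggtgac

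The stretch of Kcnj14 lies in coding exon sequence at chr7:45819612-45819671 on the minus strand. That of Kcna3 lies at chr3:107037587-107037646 (plus), that of Kcnh5 at chr12:75087445-75087504 (minus) and that of Kcnj13 at chr1:87389000-87389059 (minus). The stretch of Kcnv2 joins the end of exon 1 to the start of exon 2 and so spans an intron, from chr19:27324146-27333689 (plus). The voltage-gated pore subunit Kcna3 and the silent subunit Kcnv2 shared 42 of the 60 bases, while Kcnj14 and Kcnv2 shared 21. The inward rectifiers Kcnj14 and Kcnj13 shared 31. The 5 codons were found in frame in 56 of the 64 pore-forming and silent genes, in 0 of the 12 accessory genes and in 0.492% of the 21562 annotated genes with a complete coding sequence. All 12 inward rectifiers and all 9 silent subunits held them, and 8 of the 10 two-pore genes held them more than once. The letters were not found in 8 genes, among them Kcnc1, Kcnc2, Kcnc4, Kcnd1, Kcnd2, Kcnd3 and Kcnk1. The search allowed only Val or Ile after the first codon, so a filter with another residue there would be missed. A miss says only that these codons are not in the sequence searched.

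The library of the replicate 2 mutant retina, named Wfs1-KO 2 here, stood apart. Its mean Pearson correlation with the other 5 libraries across the tested genes was 0.918, against 0.962 to 0.971 for the others, so the main counts and the fold changes that it moved are given with and without it. Total counts ran from 17916885 (WT 3) to 101334381 (Wfs1-KO 1). The targeted transcript matched the labels, with Wfs1 at 64.9, 61.4 and 69.9 CPM in WT and 9.63, 0.900 and 11.5 CPM in Wfs1-KO retinas. The value of Wfs1-KO 2 was far below those of the other mutant retinas, and the reason was not tested. CPM is the count of a gene scaled to a common library size with TMM factors. Summed levels of 8 rod markers were 65916 to 73580 CPM in WT and 51263 to 65719 CPM in Wfs1-KO retinas, with all 8 detected. Summed markers of several cell types, of the retina and of other tissues, were high in Wfs1-KO 2, and their part in the results below was not tested. There, 6 blood markers summed to 480 CPM (12.3 to 41.2 in the other 5), 10 microglia and macrophage markers to 339 CPM (46.7 to 71.7 in the other 5) and 9 pigment epithelium markers to 412 CPM (50.8 to 166 in the other 5). Sums of Mueller glia (7628 CPM, 5209 to 6393 in the other 5), retinal ganglion (1441, 943 to 1286) and cone markers (1506, 1070 to 1275) were also highest there. Their members were mixed, with 2 of 8, 5 of 9 and 2 of 8 highest in Wfs1-KO 2 and 5, 2 and 1 lowest.

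No potassium channel gene differed between genotypes at an adjusted p under 0.05. With edgeR's quasi-likelihood test on the 6 retinas, 0 of the 76 genes passed, where 0.0108% of the 18547 tested genes did (2 genes), and DESeq2 also called 0 of the 76. At an unadjusted p under 0.05, edgeR called 0 of the 76, against a background of 2.81%. The adjusted p of the 76 genes lay between 0.979 and 0.999. Their median log2 fold change, Wfs1-KO against WT, was -0.02, where the median of all tested genes was 0.02, and 37 genes were on the higher side and 39 on the lower. The 95% interval of the fold change lay within 1 on the log2 scale, that is within 2-fold in either direction, for 44 of the 76 genes, and for 43 of the 55 genes with a mean level of 1 RPKM or more. For the others a 2-fold difference was not excluded at this depth and number of mice.

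Without Wfs1-KO 2 the outcome was the same at the adjusted threshold. In that comparison of 3 WT and 2 Wfs1-KO retinas, 0 of the 76 genes passed an adjusted p under 0.05 in edgeR, where 0.125% of 19178 tested genes did (24 genes), and DESeq2 called 0. At an unadjusted p under 0.05, 2 of the 76 genes were called, Kcnj13 on the lower and Kcna3 on the higher side, which is a smaller share than the background of 5.19%. The median log2 fold change of the 76 genes was 0.06, with 45 genes on the higher side and 31 on the lower. The interval lay within 2-fold for 58 of the 76 genes and for 52 of the 55 genes at 1 RPKM or more.

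Counting genes whose groups did not overlap gave a similar picture. On 6 retinas the WT and Wfs1-KO values did not overlap for 4 of the 76 genes, Kcne1l, Kcnj4 and Kcna7 with higher and Kcnmb2 with lower mutant values, where the background was 8.96% of the tested genes. Without Wfs1-KO 2 the count was 14 of 76, with 9 higher and 5 lower, and the background was 22.4%. Both counts are given as descriptions.

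**Figure D1:**
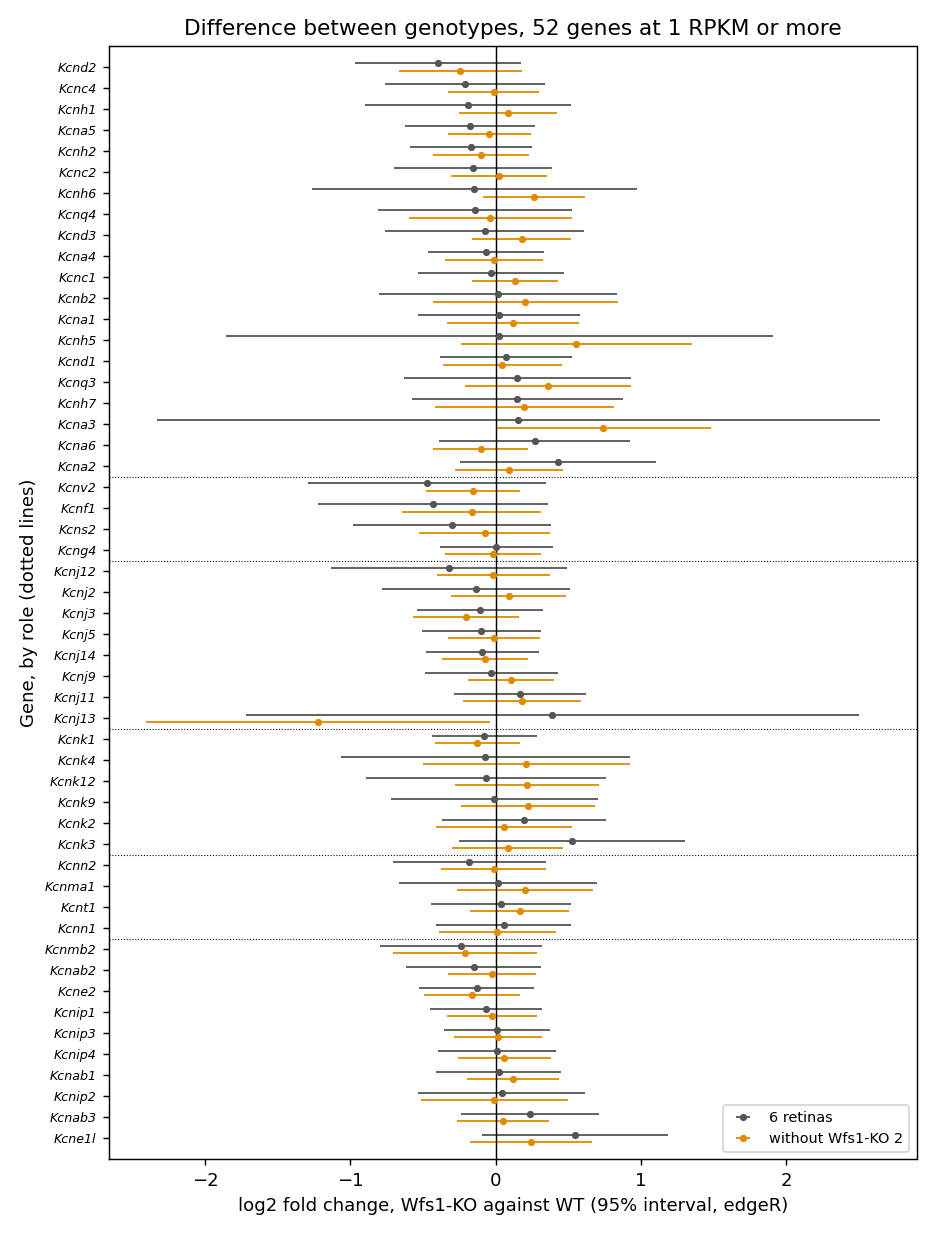
Fold changes of 52 potassium channel genes with a mean of 1 RPKM or more, grouped by role, on a log2 scale (horizontal axis), with 95% intervals from edgeR. Grey points are the 6 retinas (3 WT, 3 Wfs1-KO) and orange points leave out Wfs1-KO 2. The intervals without Wfs1-KO 2 are inside 2-fold for 49 of these 52 genes, and Kcnj13 is at -1.22.

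Levels spanned more than 3 orders of magnitude. Levels of different genes are compared here in RPKM, the CPM per kilobase of exon, as means over the 6 retinas. There were 3 genes at 100 RPKM or more, 20 between 10 and 100, 32 between 1 and 10, and 21 under 1. Kcnj14, the inward rectifier Kir2.4, had the highest mean level (246 RPKM), and Kcnv2 was at 101 RPKM. Of the 10 highest genes by RPKM, 7 were also among the 10 highest by CPM. The summed level of the 76 genes was 1085 to 1155 RPKM in 5 retinas and 886 RPKM in Wfs1-KO 2. As a share of all counts, the 76 genes took 0.555% to 0.614% in 5 retinas and 0.413% in Wfs1-KO 2.

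**Figure D2:**
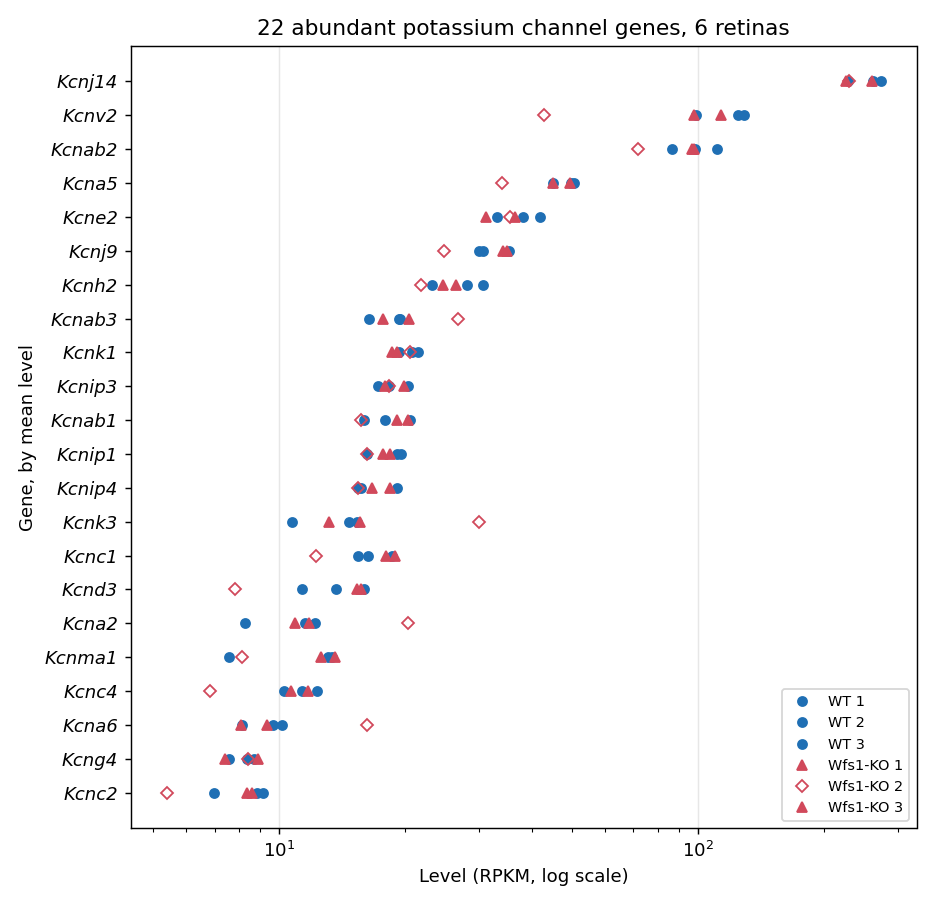
Level of 22 abundant potassium channel genes (RPKM, log axis) in each retina. Circles are WT, filled triangles Wfs1-KO 1 and 3, and open diamonds Wfs1-KO 2, which lies at 42.8 RPKM for Kcnv2 where the other 5 retinas are between 97.8 and 129.

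Values with ± below are the mean and SD of the 3 retinas of a group, with WT given first. Kcnj14 was at 273, 227 and 262 RPKM in WT and at 260, 230 and 225 RPKM in Wfs1-KO retinas. The groups overlapped, and Wfs1-KO 2 lay among the others. The log2 fold change was -0.09 (SE 0.17, interval -0.48 to 0.30, adjusted p = 0.979). Kcnv2 was at 98.8, 125 and 129 RPKM in WT and at 97.8, 42.8 and 113 RPKM in Wfs1-KO retinas. The groups overlapped, and the low value was that of Wfs1-KO 2. The Kcnv2 fold change was -0.47 (SE 0.35, adjusted p = 0.979) and, without that retina, -0.16 (SE 0.15, interval -0.48 to 0.16, adjusted p = 0.968).

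Among the 26 genes of voltage-gated pore subunits the median log2 fold change was -0.07 on 6 retinas, with 0 genes at an unadjusted p under 0.05, and 0.09 without Wfs1-KO 2, with 1 (Kcna3). Kcna5, a Kv1 subunit, was at 48.4 ± 2.95 RPKM (SD, n = 3) in WT and 42.8 ± 7.84 RPKM (SD, n = 3) in Wfs1-KO retinas. The other Kv1 subunits Kcna2 (10.6 ± 2.07 and 14.3 ± 5.15 RPKM) and Kcna1 (4.22 ± 1.04 and 4.28 ± 0.555 RPKM), which are found on axons and their terminals, also overlapped between WT and Wfs1-KO retinas. Kcna2 was highest in Wfs1-KO 2 (20.2 RPKM), and its log2 fold change of 0.43 was 0.09 without that retina. Kcna7 had 8, 10 and 0 counts in WT and 23, 14 and 10 in Wfs1-KO retinas, too few to compare beyond that. A count of 0 in WT 3 allows a level of up to 0.0780 RPKM for it, which covers counting error alone.

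The Kv3 genes repolarize neurons that fire fast. Kcnc1 was at 16.7 ± 1.63 RPKM in WT and 16.3 ± 3.61 RPKM in Wfs1-KO retinas (SD, n = 3 each). Among the Kv4 genes, which carry transient A-type currents, Kcnd3 was highest with 13.6 ± 2.27 and 12.9 ± 4.42 RPKM. Kcnd2 was at 2.98, 4.33 and 4.45 RPKM in WT and at 3.23, 2.30 and 3.38 RPKM in Wfs1-KO retinas. Its groups overlapped, with a log2 fold change of -0.40 (SE 0.24, adjusted p = 0.979), or -0.25 (SE 0.19, adjusted p = 0.968) without Wfs1-KO 2.

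Kcnh2, of the ERG channels, led the Kcnh subfamily with 27.3 ± 3.81 RPKM in WT and 24.3 ± 2.29 RPKM in Wfs1-KO retinas. Kcnh1, of the EAG channels, was at 2.0, 2.06 and 2.12 RPKM in WT and at 2.26, 1.03 and 2.12 RPKM in Wfs1-KO retinas. The values outside Wfs1-KO 2 were close together, and without it the log2 fold change was 0.08 (SE 0.15, adjusted p = 0.981). Wfs1-KO 2 was the lowest retina for 5 of the 6 Kcnh genes.

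The 9 genes of silent subunits modify the voltage-gated channels they join, and after Kcnv2 the highest level was that of Kcng4, at 8.21 ± 0.577 RPKM in WT and 8.24 ± 0.765 RPKM in Wfs1-KO retinas (log2 fold change 0.00, SE 0.17, interval -0.39 to 0.40). The median fold change of these 9 genes was -0.29 on 6 retinas and -0.14 without Wfs1-KO 2, and 0 had an unadjusted p under 0.05 in either comparison. Kcnf1 was at 1.75, 2.03 and 2.36 RPKM in WT and at 1.49, 0.885 and 2.16 RPKM in Wfs1-KO retinas. The groups overlapped, and the fold change depended on single mutant retinas. It was -0.43 (log2, SE 0.34, adjusted p = 0.979) on 6 retinas, -0.17 (SE 0.22) without Wfs1-KO 2 and -0.78 (SE 0.33, adjusted p = 0.826) without Wfs1-KO 3. Kcnv1 had 30, 30 and 0 counts in WT and 14, 8 and 18 in Wfs1-KO retinas.

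**Figure D3:**
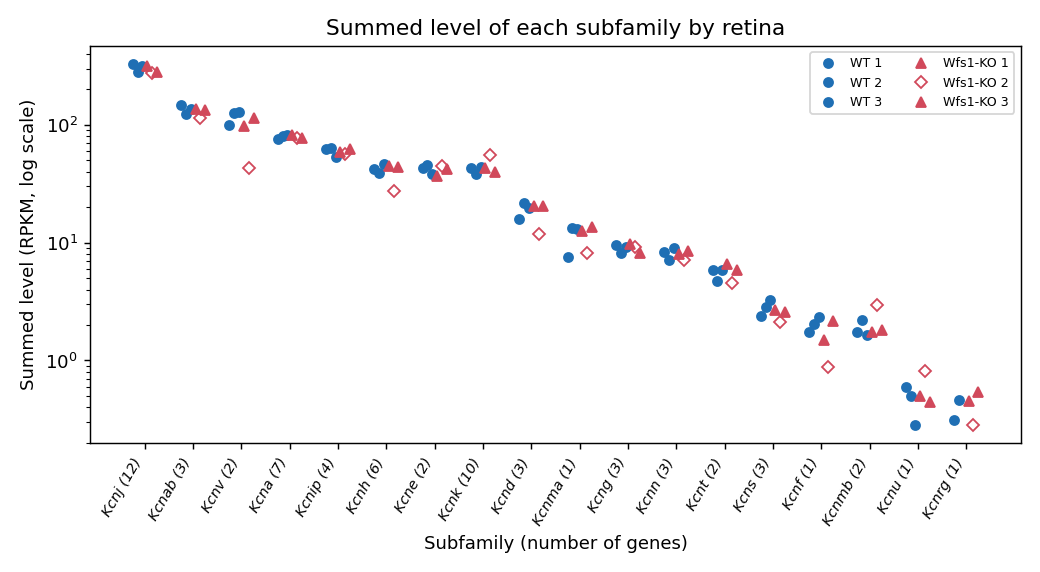
Summed level of 18 of the 21 subfamilies (RPKM, log axis) in each retina, ordered by the WT mean, with the number of genes in brackets. Circles are WT, filled triangles Wfs1-KO 1 and 3, and open diamonds Wfs1-KO 2, which lies below the other 5 retinas for Kcnv (42.9 RPKM). The WT 3 retina had 0 counts for Kcnrg and has no point there.

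For the 12 inward rectifier genes the median log2 fold change was -0.08 on 6 retinas and 0.04 without Wfs1-KO 2. Kcnj9, a G protein-gated subunit of neurons, was at 32.0 ± 2.92 RPKM in WT and 31.3 ± 5.69 RPKM in Wfs1-KO retinas (SD, n = 3 each). Kcnj11, the pore of the ATP-sensitive channel that couples metabolism to voltage, was at 2.98, 2.95 and 3.61 RPKM in WT and at 3.94, 3.49 and 3.26 RPKM in Wfs1-KO retinas, which overlapped (log2 fold change 0.17, SE 0.19, interval -0.29 to 0.62, adjusted p = 0.979). Kcnj8, the ATP-sensitive pore of pericytes and smooth muscle, was at 0.591, 0.528 and 0.535 RPKM in WT and at 0.419, 0.799 and 0.303 RPKM in Wfs1-KO retinas. Wfs1-KO 2 was the highest and the other mutant retinas the lowest. The log2 fold change of Kcnj8 was -0.13 (SE 0.43) on 6 retinas and -0.60 (SE 0.34, adjusted p = 0.966) without Wfs1-KO 2. Beside it, 8 pericyte and smooth muscle markers summed to 76.2 CPM in Wfs1-KO 2 and to 49.2 to 60.8 CPM in the other 5. Of the 8 markers, 5 were highest in Wfs1-KO 2, and 1, Pdgfrb, was lowest there (11.5 CPM, 11.8 to 13.8 in the other 5). The part of these cells in the Kcnj8 values was not tested. Kcnj2, a strong rectifier, was at 2.07 ± 0.290 and 1.88 ± 0.565 RPKM in WT and Wfs1-KO retinas.

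Kcnj13 had the largest fold change without Wfs1-KO 2, and its value depended on that retina. It had 73, 161 and 17 counts in WT and 98, 240 and 27 counts in Wfs1-KO retinas, or 0.865, 2.66 and 0.760 RPKM and 0.749, 4.47 and 0.483 RPKM. The highest value was that of Wfs1-KO 2, and the other mutant retinas lay below the lowest WT retina. The log2 fold change was 0.39 (SE 0.90, interval -1.72 to 2.5, adjusted p = 0.979) on 6 retinas and -1.22 (SE 0.53, interval -2.41 to -0.04, adjusted p = 0.931) without Wfs1-KO 2. The summed level of the 9 pigment epithelium markers was highest in the same retina, at 113, 166 and 127 CPM in WT and 89.1, 412 and 50.8 CPM in Wfs1-KO retinas. All 9 were detected, and 6 of the 9 were highest in Wfs1-KO 2. Ttr, which is also made outside the pigment epithelium, gave 234 of the 412 CPM there, while Rpe65 (20.8 CPM) and Best1 (1.14 CPM) lay within the range of the other retinas and Lrat (4.59 CPM) was below the WT range of 5.83 to 11.9 CPM. The part of pigment epithelium carried over at dissection in the Kcnj13 values was not tested.

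Kcnj4, a Kir2 subunit, had the smallest p of the 76 genes on 6 retinas and was singled out after its values were seen. It had 38, 20 and 10 counts in WT and 85, 44 and 42 counts in Wfs1-KO retinas. In RPKM these were 0.266, 0.195 and 0.264 in WT and 0.383, 0.484 and 0.443 in Wfs1-KO, so every mutant retina was above every WT retina. The log2 fold change was 0.85 (SE 0.38, interval -0.03 to 1.74, adjusted p = 0.979), with limma-voom and DESeq2 it was 0.81 and 0.85, and without Wfs1-KO 2 it was 0.77 (SE 0.42).

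Among the 10 two-pore genes, which carry background currents, the median log2 fold change was -0.04 on 6 retinas and 0.07 without Wfs1-KO 2. Kcnk1 was at 20.5 ± 1.08 RPKM in WT and 19.4 ± 0.975 RPKM in Wfs1-KO retinas (log2 fold change -0.08, interval -0.44 to 0.28). Kcnk3, the acid-sensitive TASK-1, was at 14.7, 10.7 and 15.3 RPKM in WT and at 15.6, 29.9 and 13.1 RPKM in Wfs1-KO retinas. Wfs1-KO 2 was the high value, and the log2 fold change of 0.53 (SE 0.33) was 0.08 (SE 0.17, adjusted p = 0.982) without it. Kcnk2, a mechanosensitive channel, was at 1.11 ± 0.133 and 1.27 ± 0.191 RPKM.

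The group of 7 calcium- or sodium-activated pores, which includes their pH-gated relative Kcnu1 known from sperm, showed a median log2 fold change of 0.03 on 6 retinas and 0.16 without Wfs1-KO 2. Kcnma1, the large-conductance BK channel, was at 7.60, 13.3 and 13.1 RPKM in WT and at 12.5, 8.16 and 13.6 RPKM in Wfs1-KO retinas. WT 1 and Wfs1-KO 2 were low, and the other 4 retinas lay together. The log2 fold change was 0.01 (SE 0.29, interval -0.67 to 0.69) with all retinas and 0.20 (SE 0.21) without Wfs1-KO 2. Kcnt1, a sodium-activated channel, was at 5.36 ± 0.695 and 5.48 ± 0.989 RPKM, and the small-conductance genes Kcnn1 (4.23 ± 0.729 and 4.4 ± 0.366 RPKM) and Kcnn2 (3.73 ± 0.359 and 3.28 ± 0.706 RPKM) also overlapped between the groups.

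Accessory genes numbered 12, with a median log2 fold change of 0.01 (0.03 without Wfs1-KO 2), and included some of the most abundant transcripts of the set. Kcnab2, a cytoplasmic beta subunit of Kv1 channels, was at 98.5 ± 12.3 RPKM in WT and 88.7 ± 14.6 RPKM in Wfs1-KO retinas (SD, n = 3 each). Kcne2, a single-span subunit, was at 37.7 ± 4.43 and 34.4 ± 2.86 RPKM. Kcnip3, a calcium-binding partner of Kv4 channels also known as DREAM or calsenilin, was at 18.6 ± 1.57 and 18.7 ± 1.07 RPKM, with a log2 fold change of 0.01 (SE 0.16, interval -0.36 to 0.38). Kcne1l, another single-span subunit, was at 4.83, 3.90 and 4.78 RPKM in WT and at 5.28, 9.01 and 5.42 RPKM in Wfs1-KO retinas. Its groups did not overlap, and the log2 fold change of 0.54 (SE 0.27, adjusted p = 0.979) was 0.25 (SE 0.19, adjusted p = 0.968) without Wfs1-KO 2. Kcnmb2, a beta subunit of BK channels, was at 1.26 ± 0.119 and 1.06 ± 0.0498 RPKM and did not overlap either (log2 fold change -0.24, SE 0.24, adjusted p = 0.979, and -0.21, SE 0.22, without Wfs1-KO 2). Another BK beta subunit, Kcnmb4, was at 0.628, 0.861 and 0.332 RPKM in WT and at 0.618, 1.96 and 0.764 RPKM in Wfs1-KO retinas, high in Wfs1-KO 2 only. Other annotated genes, on either strand, cover 75.3% of the exon bases of Kcnmb4 and 40.4% of those of Kcna6. In each case the gene with the largest overlap lies on the opposite strand. Kcnmb4 and Kcnn2 each overlap 2 genes, and strand was read only for the one with the larger overlap. In all, 6 of the 76 genes are covered over more than 10% of their exon bases, also among them Kcnj3 (31.1%), Kcnn2 (16.5%) and Kcnk2 (14.4%). Whether strand was used in counting is not given in the sources used here, and without it reads of these genes and of their antisense partners cannot be told apart, so their values are uncertain.

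**Figure D4:**
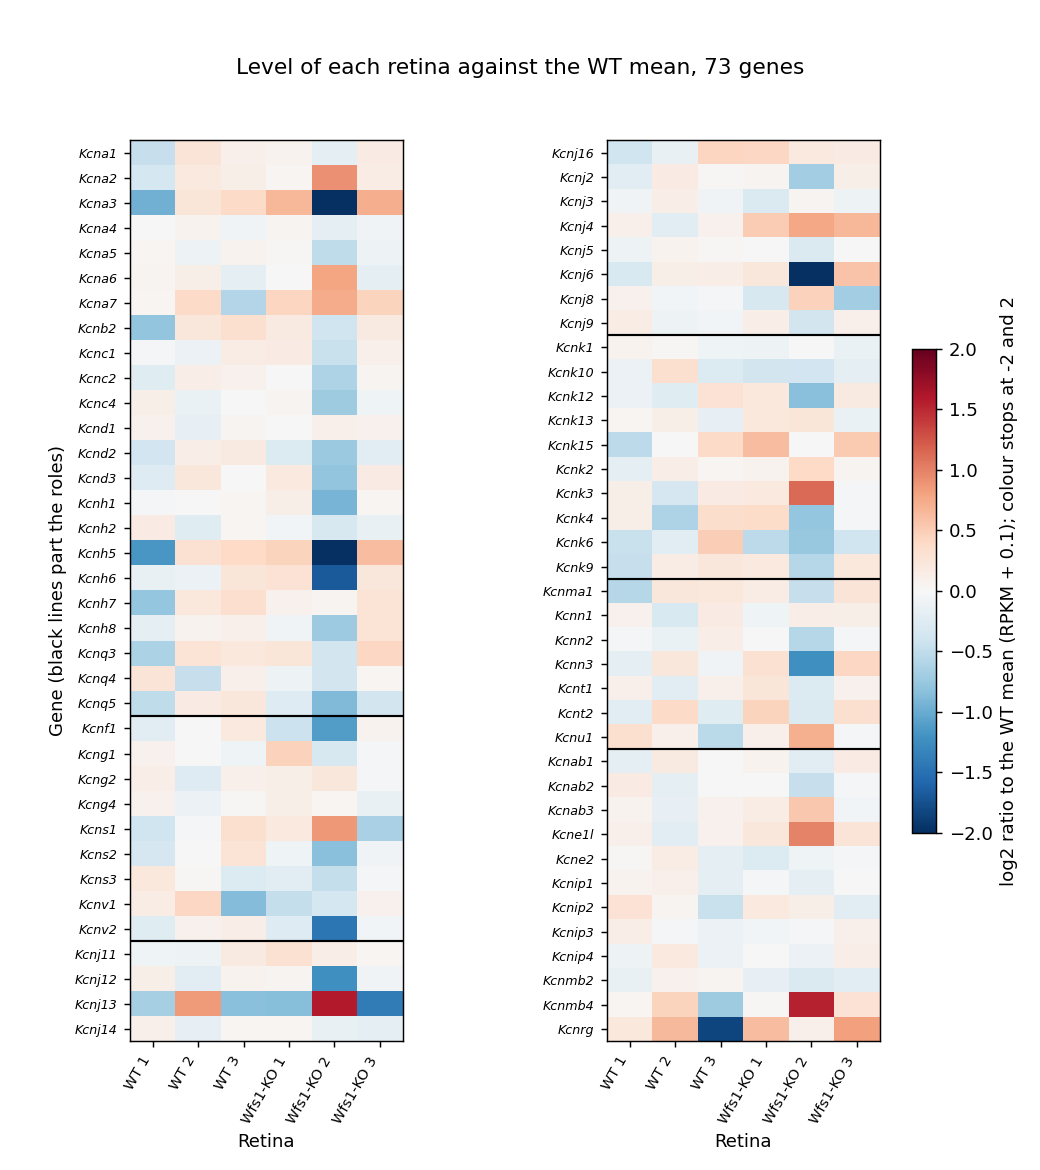
Log2 ratio of each retina's level to the WT mean (RPKM plus a constant of 0.1, colour scale from -2 to 2) for 73 genes, grouped by role and parted by black lines. The Wfs1-KO 2 column is the lowest of the 6 retinas for 37 of these genes and the highest for 16.

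Within the groups, 1 retina stood out for many of the genes. Wfs1-KO 2 was the lowest of the 6 retinas for 39 of the 76 genes (51.3%, against 36.8% of all tested genes) and the highest for 17 (22.4%, against 38.4%). For 13 genes it was the lowest at less than 0.5 times the mean of the other 5 retinas (17.1%, against 13.2% of all tested genes), and for 5 it was the highest at more than 2 times that mean (6.58%, against 17%). The 5 genes described next were chosen after their values were seen, as the lowest in that retina against the rest.

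Kcna3, the Kv1.3 channel known from lymphocytes and microglia as well as neurons, had 176, 304 and 124 counts in WT and 888, 6 and 396 counts in Wfs1-KO retinas. In RPKM these were 1.39, 3.36 and 3.70 in WT and 4.53, 0.0747 and 4.73 in Wfs1-KO, so Wfs1-KO 2 held 0.0211 times the mean of the other retinas and WT 1 was also low. The log2 fold change was 0.16 (SE 1.06, interval -2.33 to 2.64) on 6 retinas and 0.74 (SE 0.33, adjusted p = 0.959) without Wfs1-KO 2. The summed level of the 10 microglia and macrophage markers was highest in Wfs1-KO 2, the retina in which Kcna3 was at its lowest. Of these markers, 9 were highest there, while P2ry12 (5.30 CPM) lay within the range of the other retinas. Lyz2 (94.6 CPM) and C1qa (80.5 CPM) gave the largest parts of the sum of 339 CPM. The part of these cells in the Kcna3 values was not tested. Kcnh5, an EAG channel, was at 1.55, 4.46 and 4.76 RPKM in WT and at 4.90, 0.473 and 5.53 RPKM in Wfs1-KO retinas. The same retinas, Wfs1-KO 2 and WT 1, were low for it (log2 fold change 0.03, SE 0.80, or 0.55, SE 0.36, adjusted p = 0.968, without Wfs1-KO 2). Kcnj6, a G protein-gated rectifier, was at 0.610, 0.858 and 0.867 RPKM in WT and at 0.923, 0.0977 and 1.2 RPKM in Wfs1-KO retinas. Kcnh6, of the ERG channels, was at 6.77, 6.87 and 8.85 RPKM in WT and at 9.20, 2.27 and 8.78 RPKM in Wfs1-KO retinas. Kcnn3, a small-conductance channel, had 33, 36 and 10 counts in WT and 84, 4 and 40 in Wfs1-KO retinas. Wfs1-KO 2 was the lowest retina for these 3 genes, and WT 1 was the next lowest by RPKM. WT 1 held 0.707 (Kcnj6), 0.861 (Kcnh6) and 0.750 (Kcnn3) times the mean of WT 2 and WT 3.

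**Figure D5:**
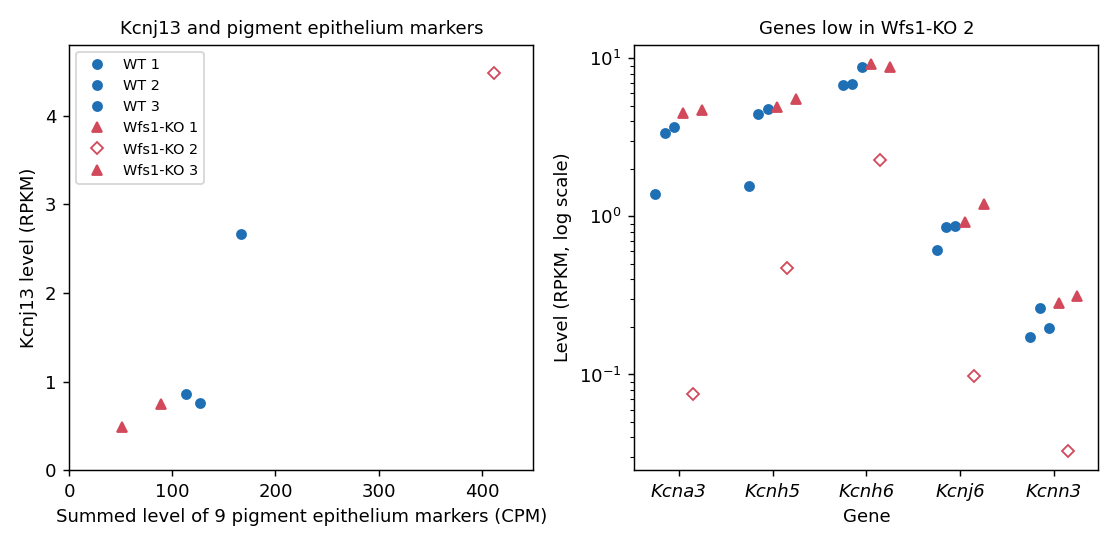
Left, Kcnj13 level (RPKM) against the summed level of 9 pigment epithelium markers (CPM) in the 6 retinas. Right, level (RPKM, log axis) of 5 genes that were low in Wfs1-KO 2 (open diamonds), which is at 0.0747 RPKM for Kcna3, with the other mutant retinas (triangles) at 4.53 and 4.73 RPKM and WT as circles.

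Exon length and GC content were set against these deviations. Across the 76 genes the deviation of Wfs1-KO 2 from the other 5 retinas (log2 CPM) had a Spearman correlation of -0.353 with exon length, and across all 18547 tested genes it was -0.398. The deviation of WT 1 from the other WT retinas correlated with exon length at -0.396 over the 76 genes and -0.405 over all tested genes, and the deviations of Wfs1-KO 2 and WT 1 correlated with each other at 0.383 and 0.374. With the GC content of the transcript, the WT 1 deviation correlated at 0.413 and 0.455 and the Wfs1-KO 2 deviation at 0.079 and 0.098. Genes share their libraries and are not independent, so these values are descriptions. The median exon length of the 76 genes was 3997 bases, against 2972 bases for all tested genes. With an offset that removed the trend of counts on exon length in each library, edgeR still called 0 of the 76 genes, on 6 retinas and without Wfs1-KO 2, and the part of length or GC content in the differences between genotypes was not tested further.

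A list of 28 related channel genes and genes taken as partners of these channels also gave no call. It held the Hcn pacemaker channels, Dpp6 and Dpp10 of Kv4 channels, BK gamma subunits, sulfonylurea receptors and membrane scaffolds. Nedd4l, Tmem175, Tmem38a and Tmem38b were among the rest. Of the 28 genes, 27 were tested, and 0 passed an unadjusted p under 0.05 in either comparison. Their median log2 fold change was -0.01 on 6 retinas and 0.05 without Wfs1-KO 2. On 6 retinas the groups did not overlap for 1 gene with higher mutant values (Lrrc26, a BK gamma subunit) and for 3 with lower ones (Hcn4, Vapb and Tmem38a), where 8.96% of all tested genes did not overlap. Without Wfs1-KO 2 there were 3 higher and 4 lower, where the background was 22.4%. Lrrc26 had a lowest count of 4 and was at 0.164, 0.141 and 0.191 RPKM in WT and 0.408, 0.358 and 0.267 RPKM in Wfs1-KO retinas (log2 fold change 1.08, SE 0.48, adjusted p = 0.979, and 1.07, SE 0.59, without Wfs1-KO 2). Hcn4, a pacemaker channel, was at 4.51, 4.84 and 5.59 RPKM in WT and at 4.43, 1.71 and 4.35 RPKM in Wfs1-KO retinas, where the low value was again that of Wfs1-KO 2 (log2 fold change -0.51, SE 0.36, adjusted p = 0.979, and -0.18, SE 0.15, without it).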

How the data were processed

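RNA-seq libraries of 3 WT and 3 Wfs1-KO retinas were analysed. RNA was extracted with a phenol reagent per the labels and a column kit per the methods. Per the labels, the authors trimmed reads with Trimmomatic 0.39, mapped them to mm10 with STAR 2.5.3a and counted exon reads with featureCounts 1.6.4 (the study's methods name other versions of the first 2, and the DESeq2 test on an RPKM-normalized matrix). The deposited values are raw counts per gene. The table has 8 library columns, of which 2 match no listed sample and were set aside. Genotype letters C and W in column names were read as control and Wfs1.

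Counts were filtered (filterByExpr), TMM-scaled and tested with edgeR 4.0.16 (quasi-likelihood, R 4.3.3, Benjamini-Hochberg adjustment over all tested genes). DESeq2 1.42.0 and limma-voom 3.58.1, other normalizations, filters, a replicate block and the omission of each retina were alternatives. edgeR was the main test because the values are counts. Its p-values set the difference between genotypes against the spread between these mice, which is estimated with information shared across genes. RPKM was computed from TMM-scaled counts and the exon lengths of the table. Total counts were 17916885 to 101334381, and a count of 0 was taken to allow 3 counts.

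Named genes were the 12 highest by RPKM, those with an unadjusted p under 0.05, a list of textbook retinal channels, those next to the count rule, and the 2 highest of each subfamily (48 genes). Others are named as chosen after their values were seen. The members and lists were chosen with earlier results of these data known. The statistics were tested on simulated counts in which no retina was set apart, so that test does not cover the deviation of Wfs1-KO 2. Results of 3 of the 76 genes are not reported here, though counts and medians over the group include them.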

Additional observations from a re-analysis of the deposited data

How the results depend on the processing

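No setting gave a potassium channel gene an adjusted p under 0.05, among edgeR with TMM, RLE or upper-quartile scaling, an offset for exon length, limma-voom, DESeq2, no count filter, 10 counts in every library, the replicate block and the omission of each retina. The count over all tested genes moved from 2 to 52 with DESeq2 and 9 without a filter, and lay between 0 and 24 when each retina was left out, the latter without Wfs1-KO 2. Without Wfs1-KO 2 it was 94 with DESeq2 and 36 with the length offset, both added after seeing the data. Potassium channel genes with an unadjusted p under 0.05 numbered 0 to 2 when each retina was left out (Kcnf1 without Wfs1-KO 3, Kcnj13 and Kcna3 without Wfs1-KO 2), 1 (Kcnj4) with 10 counts in every library, and 2 in both added settings. Their median log2 fold change stayed between -0.10 and 0.06. Pairing by replicate number was not borne out, since the deviations of same-numbered retinas correlated at -0.23, -0.11 and 0.08 and 0 of 6 libraries correlated best with their own number. The replicate block left 1 gene called overall and 0 of the 76. For the 48 named genes, 744 of 763 fold changes moved by less than 1 SE of the 6-retina edgeR fit, and none became significant. All but 1 of the 19 that moved more were in fits without Wfs1-KO 2, and the cause was not tested. That SE is wide for Kcnj13 (0.90) and Kcna3 (1.06), so a change of sign could count as less than 1 SE. Kcnj13 went from 0.39 to -0.24 with limma-voom, -0.12 with the length offset and -0.004 with the replicate block. Kcna3 went from 0.16 to -0.65 with limma-voom and -0.45 with the replicate block. With DESeq2 they were at 0.39 and 0.13.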
